A study of Homo sapiens with 27 samples.

Results

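The 39 genes described here encode proteins that copy the genome in S phase or supply the nucleotides for it: the factors that license replication origins, the MCM2-7 helicase and the proteins that activate it, the replicative polymerases, the sliding clamp and its loader, the enzymes that join Okazaki fragments, the enzymes of deoxynucleotide supply, and 4 further genes of S phase. They were chosen by symbol, with earlier results of these data known, and are 39 of the 36536 genes in the table. Each member had 1 entry, and all 39 passed the filter on low counts, as did 15575 genes in all. The RNA came from MCF10A, a non-tumorigenic human mammary epithelial cell line kept in medium with horse serum, EGF, insulin, hydrocortisone and cholera toxin. Every group was washed 6 h after seeding and held for 18 h in medium free of growth factors. The T0 group is the control taken at time 0 and received no ligand. The other 8 groups were collected 24 h after treatment, with PBS, EGF, OSM, TGFB, EGF+OSM, EGF+TGFB, OSM+TGFB or EGF+OSM+TGFB, each ligand at 10 ng/ml. There were 3 libraries in each of the 9 groups, all of 1 cell line, and the labels do not say whether they came from separate cultures, so p-values here measure only the spread between these libraries.

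In G1 the origin recognition complex (ORC), CDC6 and CDT1 load the MCM2-7 helicase onto DNA; at the start of S phase the kinase CDC7, with MCM10, CDC45 and the GINS complex, turns it into a moving helicase. DNA polymerase alpha and primase lay down primers, polymerases delta and epsilon extend them on the PCNA clamp that replication factor C (RFC) loads, and FEN1 and LIG1 finish the lagging strand. Most of these genes are textbook targets of E2F transcription factors, which the retinoblastoma proteins hold back in quiescent cells and mitogens release. EGF is a mitogen of mammary epithelial cells, OSM (oncostatin M) is a cytokine of the interleukin-6 family that signals through gp130, and TGFB slows the passage of epithelial cells through G1.

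All 39 members reached their highest mean level with EGF+OSM, and their lowest with PBS (19 members) or with TGFB alone (20 members). Levels are given in CPM, a gene's count relative to the library's total count, scaled with the TMM factors of edgeR. Summed over the 39 members, the 3 PBS libraries were at 498, 491 and 500.4 CPM and the TGFB libraries at 490.0, 472 and 497 CPM. The OSM+TGFB libraries were at 784, 727 and 936 CPM, and those of T0 at 1021, 900 and 1017 CPM. The sums with EGF+OSM+TGFB were 1545, 1378 and 1781 CPM, those with EGF+TGFB 1607, 1496 and 2033 CPM, and those with OSM 1628, 1539 and 2119 CPM. EGF gave 3069, 3074 and 3411 CPM and EGF+OSM 3596, 3487 and 3943 CPM. The sums of the PBS and TGFB groups overlapped, as did those of OSM+TGFB and T0, and those of EGF+OSM+TGFB, EGF+TGFB and OSM. The span from the lowest to the highest group mean went from 2.72-fold in SLBP to 68.3-fold in MCM10.

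**Figure D1:**
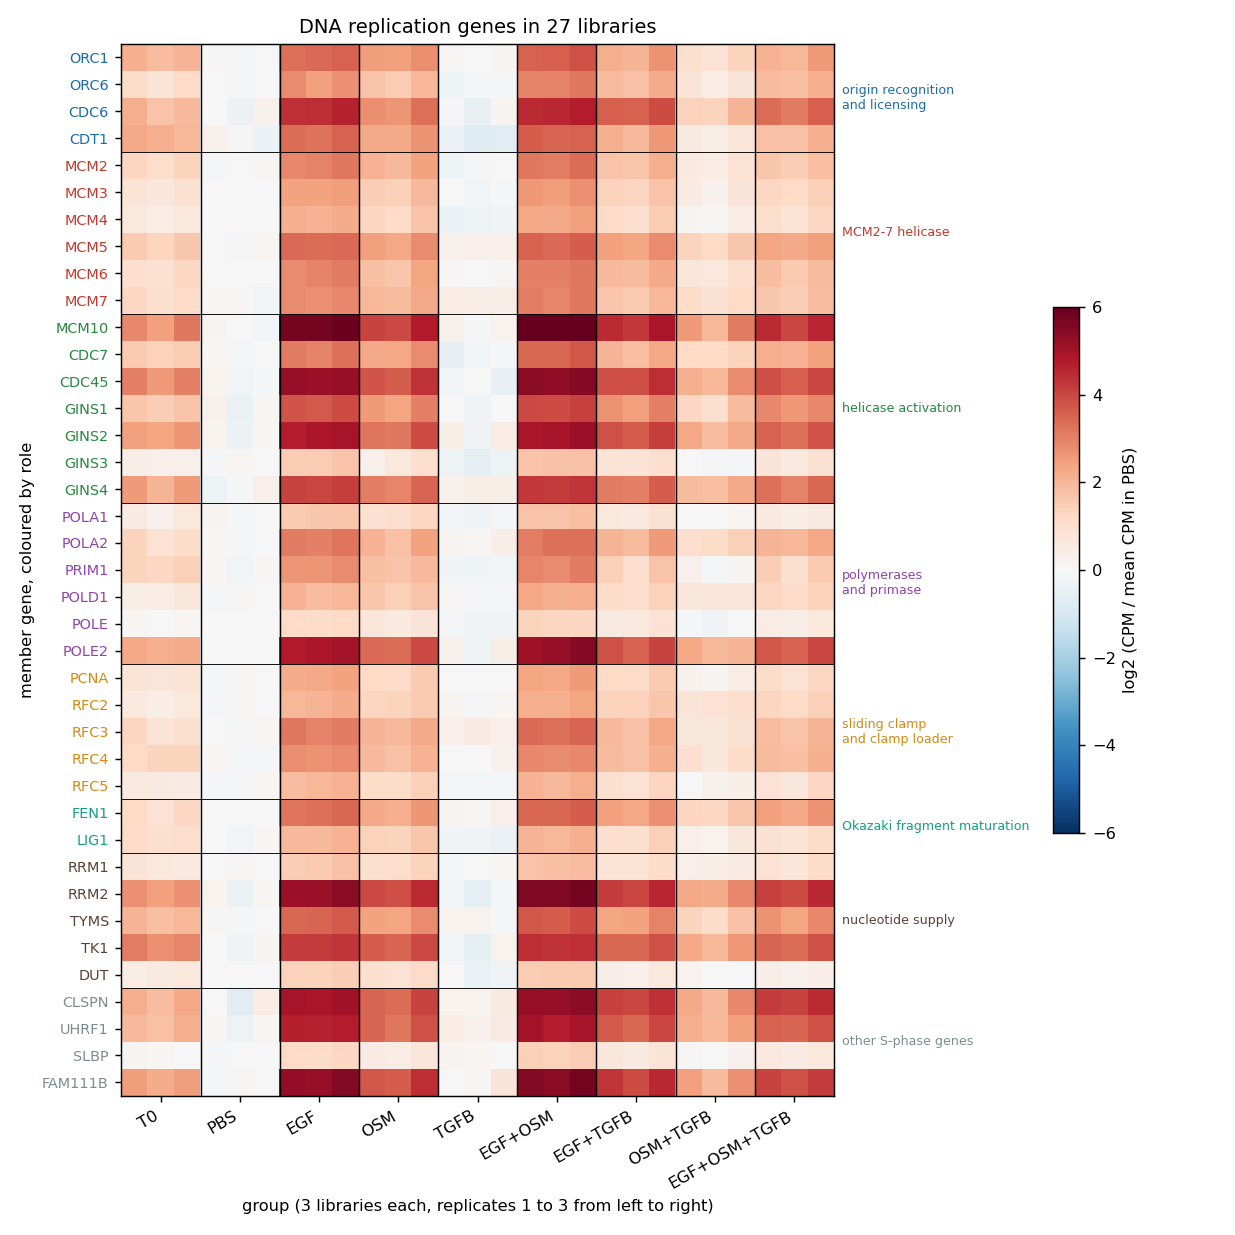
Each row is 1 member gene, coloured by role, and each column 1 library; the colour gives log2 of the CPM over the mean CPM of the PBS group, with the scale at the right. The EGF and EGF+OSM columns are the darkest in every role, the TGFB columns are close to those of PBS, and MCM10, with a span of 68.3-fold over the group means, is the darkest row.

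The libraries held between 30143162 and 52947078 counts, and the lowest count of any member in any library was 13, for POLE2. In 8 of the 9 groups the library numbered 3 had the highest summed member level, most visibly in OSM (2119 CPM against 1628 and 1539 CPM); the exception was T0. All 10 markers of mammary epithelium examined (EPCAM, KRT5, TP63 and others) were at 1 CPM or more in every library, with summed levels of 11547 to 28956 CPM. Of 10 markers of blood, endothelial and stromal cells, whose summed level was 36.2 to 150 CPM, PTPRC, CD3E, CDH5 and DES were below 1 CPM in every library, and 2, CD68 and COL1A1, were at 1 CPM or more in every library. COL1A1, a collagen chain, had group means of 4.84 (EGF+OSM) to 111 CPM (TGFB), against 38.7 CPM in PBS, and CD68, a lysosomal protein, of 21.9 (EGF) to 46.9 CPM (OSM+TGFB). The part of these markers in the members' results was not tested. CDKN2A, whose locus is known to be deleted in this line, had a level of 0 in every library. In bulk RNA, fewer cells in S phase and less RNA per cell cannot be told apart.

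Promoter sequences were available for 35 of the 39 members (RefSeq, GRCh38.p14, 250 bases before to 50 bases after the start). MCM4, MCM5, GINS4 and FAM111B had none and were not searched. The E2F motif, searched as TTTCCCGC, TTTCGCGC, TTTGCCGC or TTTGGCGC on both strands with overlapping matches counted, was found in 19 of the 35 (54.3%) and in 3.31% of all 35116 promoters of that length. The members with it come from every role: CDC6 and CDT1, MCM2, MCM3, MCM6 and MCM7, GINS1, GINS2 and GINS3, POLA1, POLA2, POLE and POLE2, PCNA and RFC3, LIG1, TYMS, CLSPN and UHRF1. More than 1 match was seen in 4 members (MCM2, MCM3, MCM6 and MCM7), which is 11.4% of the members' promoters against 0.145% of all promoters. These 4 are shown, with POLE as a member with the motif and a small response to EGF and RRM2 as a member with a large response and no match. Each stretch runs from 250 bases before to 20 bases after the RefSeq start, and the capitals mark the E2F matches.
MCM6: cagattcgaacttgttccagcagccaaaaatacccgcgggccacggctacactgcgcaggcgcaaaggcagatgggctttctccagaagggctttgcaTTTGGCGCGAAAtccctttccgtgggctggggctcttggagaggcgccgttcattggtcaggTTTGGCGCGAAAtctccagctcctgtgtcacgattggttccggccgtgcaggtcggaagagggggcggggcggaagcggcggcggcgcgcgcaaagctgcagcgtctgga
MCM3: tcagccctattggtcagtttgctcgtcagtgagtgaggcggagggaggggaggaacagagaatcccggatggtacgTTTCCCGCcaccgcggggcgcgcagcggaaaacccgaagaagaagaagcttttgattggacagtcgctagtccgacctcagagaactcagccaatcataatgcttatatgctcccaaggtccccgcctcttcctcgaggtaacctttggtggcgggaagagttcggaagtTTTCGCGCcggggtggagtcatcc
MCM7: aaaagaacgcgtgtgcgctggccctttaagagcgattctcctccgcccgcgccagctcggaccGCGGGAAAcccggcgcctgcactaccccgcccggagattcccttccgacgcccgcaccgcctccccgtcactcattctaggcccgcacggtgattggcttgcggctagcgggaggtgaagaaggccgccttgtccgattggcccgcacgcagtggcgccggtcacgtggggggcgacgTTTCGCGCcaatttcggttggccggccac
MCM2: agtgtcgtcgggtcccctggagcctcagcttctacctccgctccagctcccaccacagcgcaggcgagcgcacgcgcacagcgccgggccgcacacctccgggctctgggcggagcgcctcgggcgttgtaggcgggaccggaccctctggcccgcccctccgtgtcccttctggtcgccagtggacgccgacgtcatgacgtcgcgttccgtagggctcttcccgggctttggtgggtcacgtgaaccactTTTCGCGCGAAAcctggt
POLE: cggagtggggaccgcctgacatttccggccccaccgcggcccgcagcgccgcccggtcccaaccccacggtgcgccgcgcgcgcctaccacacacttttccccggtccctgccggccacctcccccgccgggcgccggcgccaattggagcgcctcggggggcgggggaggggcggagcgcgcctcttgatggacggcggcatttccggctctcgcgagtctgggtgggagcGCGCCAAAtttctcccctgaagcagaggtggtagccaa
RRM2: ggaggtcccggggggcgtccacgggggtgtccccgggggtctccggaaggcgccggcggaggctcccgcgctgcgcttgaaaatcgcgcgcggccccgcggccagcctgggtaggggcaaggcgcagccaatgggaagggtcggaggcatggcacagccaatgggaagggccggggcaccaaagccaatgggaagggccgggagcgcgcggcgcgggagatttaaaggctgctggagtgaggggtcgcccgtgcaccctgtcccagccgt
They lie at chr2:135876424-135876693 (minus strand), chr6:52284723-52284992 (minus strand), chr7:100101378-100101647 (minus strand), chr3:127598161-127598430 (plus strand), chr12:132687323-132687592 (minus strand) and chr2:10122489-10122758 (plus strand). MCM6 holds 4 matches in 2 stretches of 12 bases, each read once on either strand, that begin 152 and 90 bases before the start. MCM2 has the same arrangement beginning at base 3 after the start, whereas MCM3 and MCM7 have a distant match (174 and 187 bases before the start) and a near one (4 and 9 bases before it). The POLE match begins 18 bases before the start. A match describes letters, not binding.

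**Figure D2:**
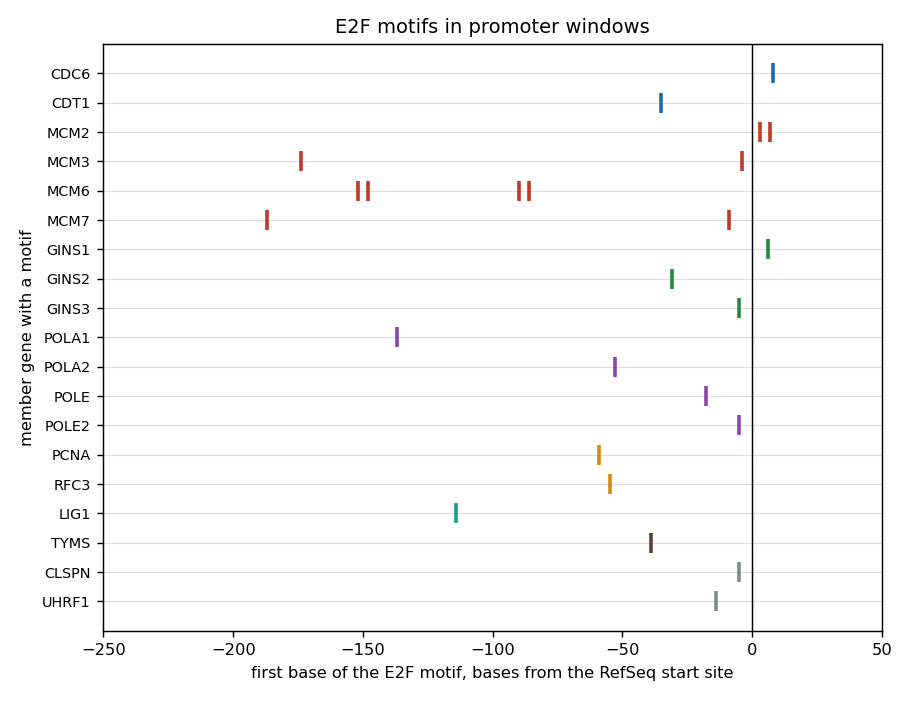
Each mark is the first base of an E2F match, on a horizontal axis of bases from the RefSeq start site (0 is the start, negative is upstream), for the 19 members with a match. MCM6 has 4 marks and MCM2, MCM3 and MCM7 have 2 each; 13 of the other 15 members have theirs within 60 bases of the start.

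The responses of members with and without the motif overlapped. The median log2 fold change of EGF against PBS was 3.09 over the 19 members with a match (1.16 to 4.98) and 2.75 over the 16 without one (1.18 to 5.79). The CCAAT box was in 54.3% of the members' promoters and in 34.6% of all promoters. It was also in 48.8% of the 41 promoters of the rest of the pathway, a list described below. For a list of 20 mitosis genes 19 promoters were found, of which 89.5% held the CCAAT box. The CHR element TTTGAA, known from genes of mitosis, was in 1 of the 35 (RRM1, 2.86%) against 15.2% of all promoters. It was in 63.2% of the mitosis promoters. The E2F motif was in 17.1% of the promoters of the rest of the pathway and in 15.8% of the mitosis promoters.

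Between T0 and PBS, a further 24 h without growth factors, 37 of the 39 members fell (edgeR quasi-likelihood test, adjusted p under 0.05) and none rose. Over all genes tested, 18.9% were called lower in this comparison. The median log2 fold change of the members was -1.24, against -0.01 over all genes, and by role the medians ran from -2.38 in helicase activation and -2.05 in the further S-phase genes to -0.80 in the polymerases and primase and in the clamp and clamp loader. TK1, which phosphorylates thymidine for reuse, was at 36.1, 28.4 and 32.8 CPM at T0 and at 4.38, 3.56 and 4.81 CPM in PBS. This was the largest change of any member, a log2 fold change of -2.94 ± 0.19 (SE; edgeR adjusted p 3.30e-10). CDT1, the licensing factor that is destroyed once S phase begins, was at 20.5, 18.8 and 16.8 CPM at T0 and 4.93, 4.36 and 3.25 CPM in PBS (log2 fold change -2.16 ± 0.17, edgeR adjusted p 3.60e-09). The 6 subunits of the MCM2-7 helicase had a median of -1.10. The members not called were POLE, the catalytic subunit of polymerase epsilon (-0.07 ± 0.07), and SLBP, which binds the stem-loop of histone mRNAs (-0.10 ± 0.08); their T0 and PBS libraries overlapped.

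With EGF all 39 members were called higher than in PBS. Over all genes, 34.9% were called higher and 38.6% lower. The members' median log2 fold change was 3.09, an 8.54-fold rise, while the median over all genes was -0.07. Median changes by role ran from 2.32 for the clamp and clamp loader and 2.35 for the polymerases and primase to 4.07 for helicase activation and 4.82 for the further S-phase genes. In every role with more than 2 members the smallest and the largest responder differed by 1.11 or more on the log2 scale.

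Among the licensing genes CDC6, the ATPase that loads the helicase with CDT1, was at 3.78, 2.91 and 4.40 CPM in PBS and at 77.3, 78.8 and 89.6 CPM with EGF. Its log2 fold change was 4.48 ± 0.22 (edgeR adjusted p 1.98e-13), the largest of the 4 genes of this role, and ORC6 had the smallest (2.68). The helicase subunits lay between 2.15 for MCM4 and 3.39 for MCM5. MCM4 went from 52.4, 52.8 and 54.1 CPM to 229.5, 227 and 249.5 CPM, and MCM7 from 28.1, 28.8 and 24.7 CPM to 193, 184 and 201 CPM.

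Helicase activation held the member with the largest response, MCM10 (ENSG00000065328, GRCh38 chromosome 10, 13161558 to 13211110, plus strand), which is needed to start unwinding. It was at 1.08, 0.928 and 0.855 CPM in PBS and 51.1, 51.5 and 56.2 CPM with EGF, a 55.5-fold rise (log2 fold change 5.79 ± 0.31, edgeR adjusted p 6.14e-13). GINS3 (1.60), a subunit of the GINS complex, had the smallest response of this role.

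The subunits of polymerase epsilon responded unequally. POLE (ENSG00000177084, chromosome 12, 132623753 to 132687376, minus strand) was at 39.2, 39.8 and 40.2 CPM in PBS and 92.1, 85.4 and 89.6 CPM with EGF, the smallest rise of all members (log2 fold change 1.16 ± 0.07, edgeR adjusted p 1.85e-13). POLE2, its second subunit, went from 0.375, 0.367 and 0.367 CPM to 10.0, 10.8 and 11.6 CPM (4.86 ± 0.21, edgeR adjusted p 2.27e-16). Per kilobase of the canonical transcript (GENCODE v44), the mean levels with EGF were 11.4 CPM for POLE and 6.38 CPM for POLE2, whereas in PBS they were 5.08 and 0.22 CPM, so the subunits were nearer to equal with EGF.

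PCNA (ENSG00000132646, chromosome 20, 5114953 to 5126626, minus strand), the sliding clamp, was the most abundant member per kilobase in the EGF group, at 115 CPM per kilobase, and in PBS, at 23.1 CPM per kilobase. It went from 28.5, 30.7 and 29.2 CPM in PBS to 139, 144 and 158 CPM with EGF (log2 fold change 2.32 ± 0.12, edgeR adjusted p 7.30e-14). FEN1, which cuts the flap of each Okazaki fragment, rose by 3.32 ± 0.15 and LIG1, the ligase that seals it, by 2.0.

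In nucleotide supply the subunits of ribonucleotide reductase also differed. RRM2 (ENSG00000171848), the small subunit, was at 9.41, 6.23 and 9.04 CPM in PBS and 289, 300.3 and 352 CPM with EGF (log2 fold change 5.26 ± 0.25, edgeR adjusted p 1.49e-13). RRM1, the large subunit, which is known to be the more stable protein of the enzyme, had a level per kilobase of 22.0 CPM in PBS and 66.6 CPM with EGF, against 2.53 and 96.3 CPM for RRM2: the order of the subunits' levels was the opposite in the 2 groups. DUT, which removes dUTP, rose least of this role (1.40 ± 0.08). Of the further S-phase genes, FAM111B went from 1.68, 1.90 and 1.83 CPM to 69.7, 67.6 and 81.2 CPM (5.33 ± 0.27), UHRF1, which brings DNA methylation to new DNA, rose by 4.67 ± 0.19, and SLBP by 1.18 ± 0.08.

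**Figure D3:**
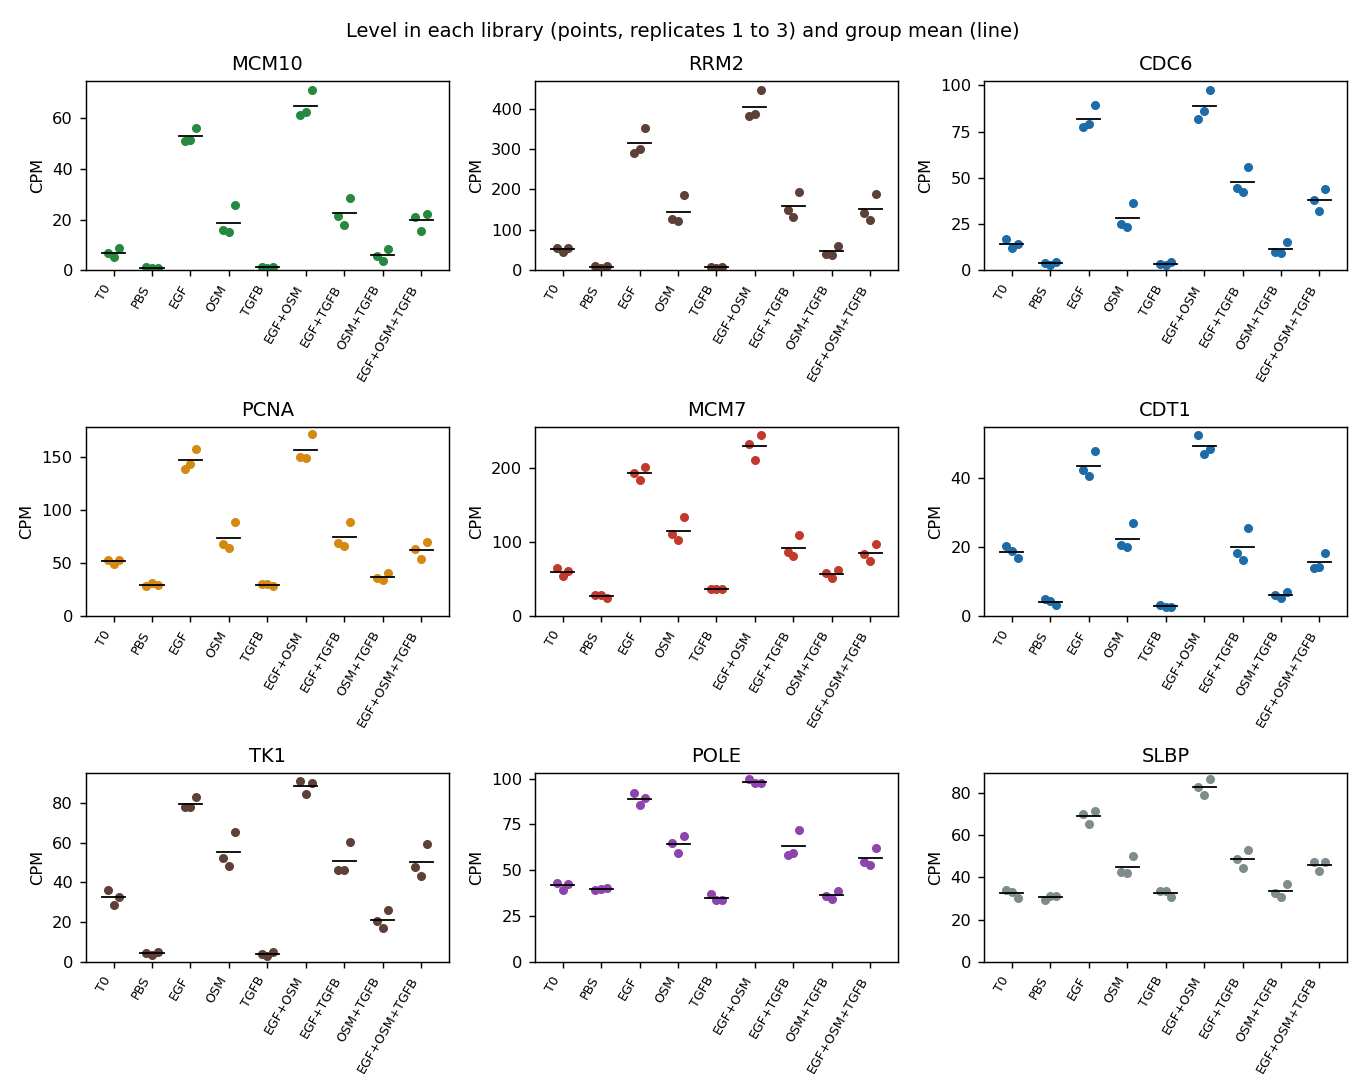
Each panel is 1 member, with CPM on a linear vertical axis that starts at 0; points are single libraries (replicates 1 to 3 from left to right) and lines are group means. MCM10, RRM2 and CDC6 are near 0 in PBS and TGFB and highest with EGF+OSM, whereas POLE and SLBP have levels of 29.4 to 40.2 CPM in the PBS libraries.

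OSM also raised all 39 members above PBS, where 33.5% of all genes were called higher and 29.8% lower, with a median log2 fold change of 2.11 (4.31-fold). MCM10 again had the largest response (15.9, 14.9 and 25.6 CPM; log2 fold change 4.30 ± 0.32, edgeR adjusted p 1.93e-10) and SLBP the smallest (0.56 ± 0.08, edgeR adjusted p 5.48e-07). EGF and OSM were each set against the same 3 PBS libraries. Compared with each other, all 39 members were called lower with OSM than with EGF. The share of all genes called lower with OSM was 28.8%, and the members' median log2 difference was -0.91. CDC6 stood lowest: its OSM libraries were at 25.2, 23.4 and 36.4 CPM, 34.6% of its mean level with EGF (log2 difference -1.53 ± 0.18, edgeR adjusted p 4.32e-07). The polymerase delta subunit POLD1 was nearest to its EGF level, at 77.1% of it (-0.38 ± 0.09, edgeR adjusted p 0.00109).

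When OSM was added to EGF, the log2 differences of all 39 members were above 0, with a median of 0.19. Of the 39, 6 were called higher than with EGF alone, 15.4% of the members against 17.8% of all genes. The 6 were ORC6, CDC7, POLD1, POLE2, RFC3 and SLBP, with log2 differences of 0.24 to 0.40; 7 members had an unadjusted p under 0.05. SLBP was at 69.8, 65.2 and 71.5 CPM with EGF and 83.0, 79.2 and 86.7 CPM with EGF+OSM (0.27 ± 0.07, edgeR adjusted p 0.00539), and it was the member whose call held in each alternative other than a 2-fold limit. The count of called members fell to 1 without EGF replicate 2 or EGF+OSM replicate 3 and to 3 without EGF replicate 1. It rose to 12 without all the libraries numbered 3, and to 18 in a fit that also held the replicate number (replicate block). The 17.8% of all genes comes from the main fit. For the other fits that share is not given here, so their counts cannot be set against it.

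Against PBS, EGF+OSM raised all 39 members (37.6% of all genes were called higher), by a median of 3.22. The departure of the pair from its parts was measured as the log2 fold change of EGF+OSM less the sum of those of EGF and OSM; 0 means that the 2 folds multiply. It was below 0 and called in all 39 members, against 23.0% of all genes, with a median of -1.98. For MCM10 the fold change of the pair was 6.09 on the log2 scale, against 5.79 with EGF and 4.30 with OSM, a departure of -4.00 ± 0.39 (edgeR adjusted p 5.73e-08). SLBP had the smallest departure, -0.29 ± 0.11 (edgeR adjusted p 0.0332), a call that ended in 10 of the 33 other analyses, at most at an adjusted p of 0.145. The call of GINS3 ended in 2 of them, at an edgeR adjusted p of up to 0.300.

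**Figure D4:**
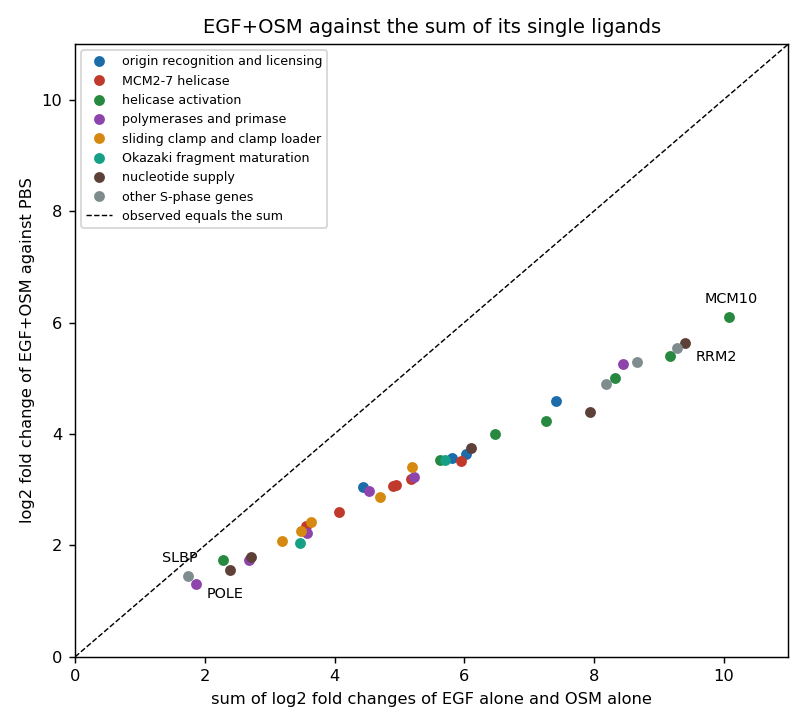
Each point is 1 member, coloured by role: the horizontal axis is the sum of its log2 fold changes with EGF alone and with OSM alone, the vertical axis its log2 fold change with EGF+OSM, all against PBS. All 39 points lie under the dashed line of equality, and MCM10 at the far right, with a departure of -4.00, lies farthest from it.

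With TGFB alone, 3 of the 39 members passed the test against PBS. MCM7 was called higher, CDT1 and GINS3 were called lower, and the median log2 fold change over the 39 was -0.01; 7 members had an unadjusted p under 0.05. Over all genes 19.9% were called higher and 15.8% lower, against 2.56% and 5.13% of the members. The count of 3 became 5 with DESeq2 or upper-quartile scaling, 6 without all the libraries numbered 3 and 10 with the replicate block. The shares of all genes come from the main fit. Those of the other fits are not given here, so their counts cannot be set against them. Without single libraries the count ran from 1 (without PBS replicate 2 or TGFB replicate 2) to 6 (without EGF+TGFB replicate 3). MCM7 was at 36.9, 36.0 and 36.0 CPM with TGFB, above each PBS library (log2 fold change 0.42 ± 0.12, edgeR adjusted p 0.00764). Its exons overlap those of AP4M1 on the opposite strand, and whether the counting used strand is not given in the sources used here. CDT1 was at 3.31, 2.50 and 2.68 CPM, where the lowest PBS library was at 3.25 CPM (-0.56 ± 0.21, edgeR adjusted p 0.0389). Its call was lost without PBS replicate 1 or 2, without TGFB replicate 2 or 3 and with no filter on low counts, at an adjusted p of up to 0.165. GINS3 was at 6.29, 5.38 and 6.25 CPM against 7.23, 8.56 and 7.67 CPM in PBS (-0.39 ± 0.13, edgeR adjusted p 0.0168), and its call was lost without PBS replicate 2 or TGFB replicate 2. TYMS, GINS1 and RFC5 also overlap an opposite-strand gene, over 967 bases (ENOSF1), 259 bases (NINL) and 186 bases (WSB2), and their values are uncertain for the same reason.

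Added to EGF, to OSM or to both, TGFB lowered all 39 members, each of them called. The share of all genes called lower was 27.7% on EGF, 25.6% on OSM and 29.5% on EGF+OSM. The members' median log2 fold changes were -0.94, -1.16 and -1.23, or 1.91-fold, 2.24-fold and 2.34-fold lower. PRIM1, the catalytic subunit of primase, fell most on EGF, from 18.6, 18.9 and 21.4 CPM to 7.92, 6.04 and 9.84 CPM (-1.32 ± 0.14, edgeR adjusted p 1.91e-08). Its exons overlap HSD17B6 on the opposite strand over 132 bases.

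On OSM the largest fall was that of CDT1, from 20.5, 20.0 and 26.97 CPM to 6.01, 5.34 and 7.03 CPM (-1.87 ± 0.17, edgeR adjusted p 4.84e-09), and the smallest that of SLBP (-0.43 ± 0.08). On EGF+OSM it was that of MCM10, from 61.4, 62.5 and 71.3 CPM to 21.2, 15.4 and 22.3 CPM (-1.72 ± 0.22, edgeR adjusted p 7.79e-07), and the smallest that of POLE (-0.80 ± 0.07). By role, the lowest median was that of helicase activation on EGF (-1.06) and of licensing on OSM (-1.42), while on EGF+OSM the medians of licensing (-1.31), the MCM2-7 helicase (-1.31) and helicase activation (-1.30) were close.

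**Figure D5:**
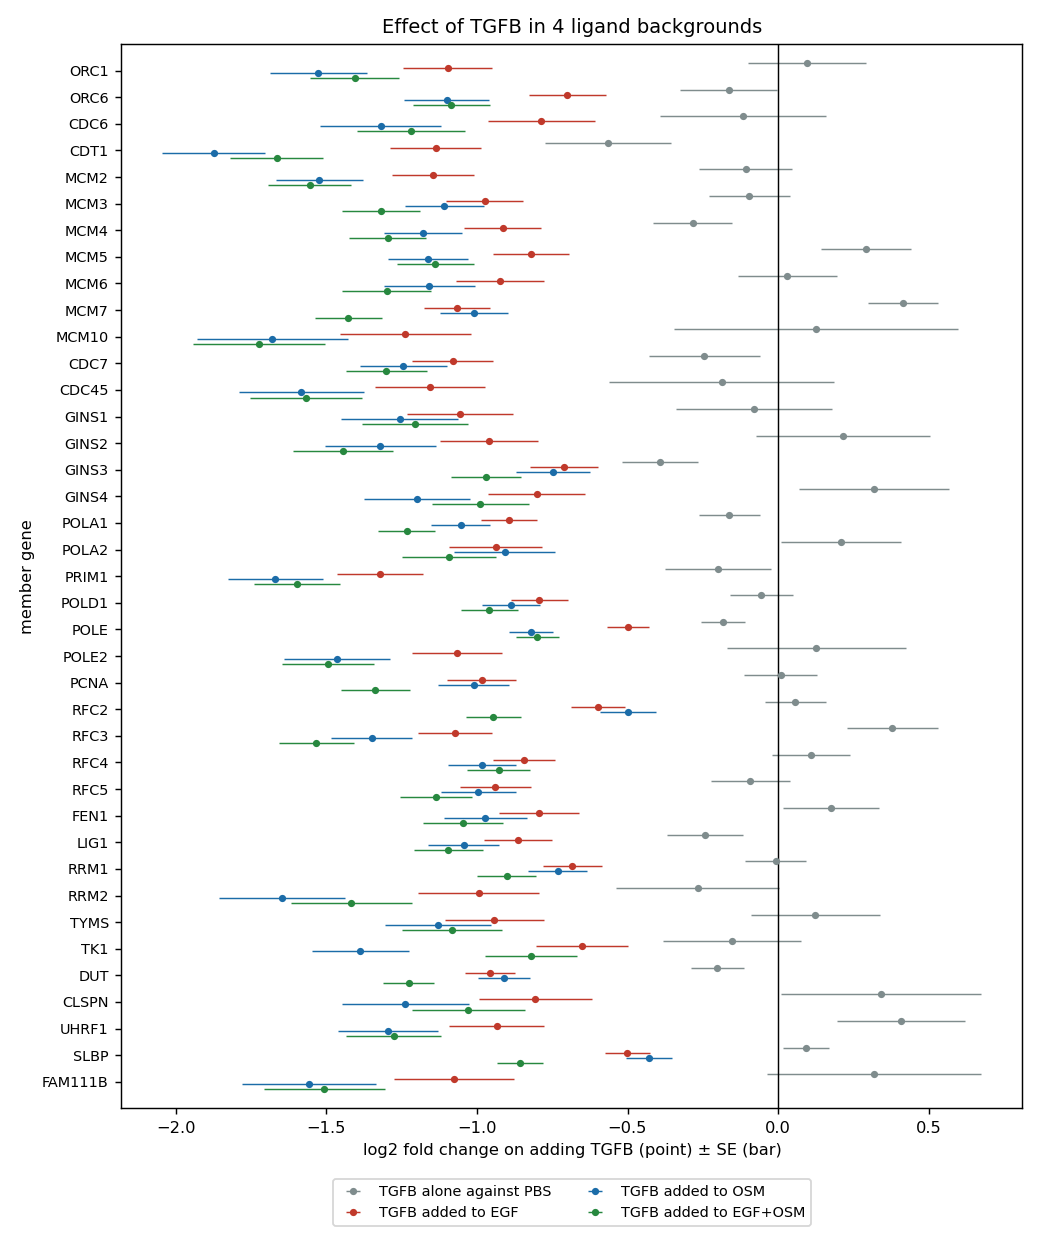
For each member, points give the log2 fold change on adding TGFB and bars its SE (n = 3 libraries a group): alone against PBS (grey), to EGF (red), to OSM (blue) and to EGF+OSM (green). The grey points lie on both sides of 0, between -0.56 and 0.42, and all the others lie below it, between -1.87 and -0.43.

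The members stayed above PBS in most of these combinations. With EGF+TGFB all 39 were higher than in PBS (36.2% of all genes were called higher), by a median of 2.05, and with EGF+OSM+TGFB all 39 (37.7% of all genes), by a median of 1.95. With OSM+TGFB 31 of 39 were higher (34.2% of all genes), by a median of 0.95. The 8 members not called were MCM4, GINS3, POLA1, PRIM1, POLE, RFC5, DUT and SLBP, with log2 fold changes of -0.13 to 0.24. POLE was at 36.1, 34.3 and 38.7 CPM with OSM+TGFB, below each PBS library (-0.13 ± 0.07, edgeR adjusted p 0.130), and RRM2 at 39.7, 38.2 and 60.6 CPM, above each of them (2.50 ± 0.24, edgeR adjusted p 1.11e-08). PCNA was the member nearest to the threshold among those called (0.31 ± 0.12, edgeR adjusted p 0.0282), and CDT1 came next (0.55 ± 0.19, edgeR adjusted p 0.0150). The PCNA call was lost under upper-quartile scaling, with no filter on low counts and without PBS replicate 1 or 3 or OSM+TGFB replicate 3, and that of CDT1 without all libraries numbered 3 and without PBS replicate 3 or OSM+TGFB replicate 3.

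Set against its effect alone, the effect of TGFB was more negative on both ligands. The departure of EGF+TGFB from the sum of its parts was below 0 in all 39 members and called in 31 (16.5% of all genes were called below 0), with a median of -0.95; MCM7 had the largest, -1.48 ± 0.16 (edgeR adjusted p 6.79e-07). That of OSM+TGFB was called in 38 (13.7% of all genes), with a median of -1.19, and FAM111B had the largest, -1.88 ± 0.42 (edgeR adjusted p 0.00273). The member not called was GINS3 (-0.35 ± 0.18). These departures share the PBS and TGFB libraries and are given side by side.

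The effect of TGFB on OSM was also tested directly against its effect on EGF. The difference was below 0 in 34 of the 39 members, with a median of -0.27, but 1 was called, against 3.85% of all genes (2.56% of the members). That member was TK1 (ENSG00000167900, chromosome 17, 78174091 to 78187233, minus strand): TGFB took it from 52.4, 48.4 and 65.5 CPM to 20.4, 17.2 and 25.9 CPM on OSM, and from 77.9, 78.2 and 83.3 CPM to 46.1, 46.5 and 60.3 CPM on EGF. The falls were 2.62-fold and 1.57-fold, a log2 difference of -0.74 ± 0.22 (edgeR adjusted p 0.0458). That call was lost in 17 of 27 fits that each left out 1 library, and its adjusted p over the 33 analyses other than the 2-fold limit ranged from 0.000439 to 0.132. CDT1 had as large a difference, -0.74 ± 0.23 (edgeR adjusted p 0.0505), and 5 members had an unadjusted p under 0.05. Without OSM replicate 3 the median difference was -0.08, and without every library numbered 3 it was -0.13. With the replicate block 10 members were called, all below 0. The 3.85% of all genes comes from the main fit, and the share in the blocked fit is not given here.

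The rest of the pathway was followed in a list of 41 genes: other ORC, polymerase and RFC subunits, replication protein A, regulators of initiation, fork proteins, histone chaperones and nucleotide enzymes. Against PBS 35 of them were higher and 4 lower with EGF (median log2 fold change 1.32), 34 higher and 3 lower with OSM (0.83), and 1 higher and 3 lower with TGFB (-0.07). The shares of all genes called higher and lower were 34.9% and 38.6% with EGF, 33.5% and 29.8% with OSM and 19.9% and 15.8% with TGFB. ASF1B, a histone chaperone of S phase, had the largest rise with EGF (4.43; edgeR adjusted p 2.29e-14). The 4 genes lower with EGF were RRM2B, the p53-induced counterpart of RRM2 (-0.63), TK2, the mitochondrial counterpart of TK1 (-0.50), POLD4, a small polymerase delta subunit (-0.46), and RNASEH2C (-0.30). With TGFB alone TICRR, which helps CDC45 onto origins, had a log2 fold change of -1.36 (edgeR adjusted p 1.14e-05), and POLD2 (-0.31) and GMNN, the inhibitor of CDT1 (-0.42), were also called lower, while TOP1 was called higher (0.17). On EGF, OSM and EGF+OSM, TGFB lowered 36, 35 and 36 of the 41, where 27.7%, 25.6% and 29.5% of all genes were called lower. The log2 fold changes of POLD4 were 0.83, 0.69 and 1.09.

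Of 13 genes that control entry into S phase, 12 were tested. The gene not tested, CDKN2B, had a level of 0 in every library. With EGF 10 were called higher and 2 lower, with OSM 8 and 2, and with TGFB alone 1 and 4. Of all genes, 34.9% were called higher and 38.6% lower with EGF, and 33.5% and 29.8% with OSM. With TGFB alone these shares were 19.9% and 15.8%. When TGFB was added to EGF, OSM or EGF+OSM, 8 were called lower and 1 higher each time. Of all genes, 27.7%, 25.6% and 29.5% were called lower, and the shares called higher are not given here. E2F1 rose with EGF (2.63) and with OSM (0.99) and fell with TGFB alone (-0.95; edgeR adjusted p 0.000827). E2F2 (-1.14), E2F8 (-1.21) and MYC (-0.38) were the others lower with TGFB alone, and E2F7, a repressor of the E2F family, was the 1 called higher (0.86; edgeR adjusted p 0.00625). The inhibitor CDKN1A fell with EGF (-1.05) and with OSM (-0.92) and rose when TGFB was added to EGF (1.00), OSM (0.84) or EGF+OSM (1.26). The inhibitor CDKN1B fell with EGF (-0.85) and OSM (-0.67) and fell further when TGFB was added to EGF (-0.34), while its values on OSM (0.02) and EGF+OSM (-0.04) were not called. CCND1, the cyclin of early G1, rose with EGF (2.44) and was not called with OSM (-0.06). A list of 20 mitosis genes was followed in the same way, beside the same shares of all genes. Its median was 3.98 under EGF (20 genes called) and 3.42 under OSM (20 called). Under TGFB alone its median was -0.44 (7 called, all lower, where 15.8% of all genes were called lower). Its medians on adding TGFB were -0.97 on EGF and -1.79 on OSM, beside -0.94 and -1.16 for the replication members; whether the lists differ was not tested.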

How the data were processed

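RNA of 27 MCF10A libraries was sequenced from libraries made with a stranded mRNA kit, per the labels' protocols. The submitters' processing notes name Trim Galore 0.4.3, cutadapt 1.10, kallisto 0.46.2, R 3.5.0 and the builds GRCh38.p5 and hg38. The authors deposited 1 table of estimated counts per gene, all whole numbers, so no rounding was needed here; how transcripts were summed and whether strand was used are not given in the sources used here. Of its 40487 entries, those sharing a symbol were summed. The 7165 entries without a symbol, at most 0.382% of a library's counts, were kept under their Ensembl identifiers. Library totals were 30143162 to 52947078 counts (median 39530985), and the common biological coefficient of variation was 7.83%. The spread between libraries thus sets the precision for genes with many counts. Counting error also matters for members with few counts in a library, such as POLE2 (13 at the lowest), CDC45 (26) and MCM10 (35).

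A single edgeR 4.0.16 model (R 4.3.3) with 9 group means and 18 residual degrees of freedom was fitted to all libraries, with TMM scaling (factors 0.867 to 1.12), filterByExpr (minimum count 10) and robust quasi-likelihood tests. P-values were adjusted by Benjamini-Hochberg over 15575 genes and called under 0.05. The SE of a log2 fold change is its size over the square root of F. The procedure was tested on simulated data. Members and lists were chosen with earlier results of these data known. Genes named with the value in every library are, in each role, the member with the highest mean CPM, the 3 members with the largest and the 3 with the smallest response to EGF, the member with the largest value in each further comparison and members called against the direction of the rest; other genes given with values were named after these were seen. Alternatives were upper-quartile scaling, DESeq2 1.42.0, no filter on low counts, entries as deposited, a replicate block, a 2-fold limit and leaving out each library. Promoters came from RefSeq (GRCh38.p14), and gene positions and lengths from GENCODE v44.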

Additional observations from a re-analysis of the deposited data

Results flagged for a closer look

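These results are listed because a test of the difference between 2 effects passed its threshold (edgeR, adjusted p under 0.05). The departure of EGF+OSM from the sum of its single ligands was called in 39 members, and MCM10 had the largest, -4.00 on the log2 scale. The departure of EGF+TGFB was called in 31 members, with -1.48 in MCM7 as the largest, and that of OSM+TGFB in 38 members, with -1.88 in FAM111B. The effect of TGFB on OSM differed from its effect on EGF in 1 member, TK1, by -0.74. That call was lost in 17 of 27 fits that each left out 1 library, and the number of members called ran from 0 to 10 over the alternatives.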

How the results depend on the processing

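No called value reversed its direction. In 33 alternatives (all but the 2-fold limit), all 39 members stayed called for EGF, OSM, EGF+OSM, EGF+TGFB and EGF+OSM+TGFB against PBS, for OSM against EGF and for TGFB added to EGF, OSM or EGF+OSM. The count for TGFB alone (3) became 0 with a 2-fold limit, 5 with upper-quartile scaling, 5 with DESeq2, 10 with the replicate block and 6 without the libraries numbered 3; without single libraries it ran from 1 (PBS replicate 2 or TGFB replicate 2) to 6 (EGF+TGFB replicate 3), with 5 without OSM replicate 3, TGFB replicate 1 or EGF+OSM+TGFB replicate 3. For EGF+OSM against EGF (6) it was 0 with a 2-fold limit, 18 with the replicate block, 12 without the libraries numbered 3 and 1 (EGF replicate 2 or EGF+OSM replicate 3) to 8 without single libraries. For the difference in TGFB effect (1) it was 0 with a 2-fold limit, 2 with upper-quartile scaling, 3 with DESeq2, 0 with entries as deposited, 10 with the replicate block, 2 without the libraries numbered 3 and 0 to 3 without single libraries. Shares of all genes called in these alternatives are not given here. The 2-fold limit left 19 members for OSM+TGFB against PBS, 11 for OSM against EGF, 12 for EGF+TGFB against EGF and 14 for the EGF+TGFB departure. Over the 33 alternatives the departure counts ran from 37 to 39 for EGF+OSM, 28 to 37 for EGF+TGFB and 36 to 39 for OSM+TGFB.

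Leaving out the libraries numbered 3, an alternative chosen after seeing the data, moved the median for OSM+TGFB against PBS to 0.80, that of the EGF+OSM departure to -1.78 and that of the difference in TGFB effect to -0.13. Without single libraries the medians ran from -1.27 to -1.17 for PBS against T0, -1.30 to -0.99 for TGFB added to OSM, -2.08 to -1.83 for the EGF+OSM departure, -1.41 to -0.99 for the OSM+TGFB departure and -0.37 to -0.084 for the difference in TGFB effect, and the last of each came without T0 replicate 3 in the first and OSM replicate 3 in the others. Over the 33 alternatives the median for TGFB alone lay on both sides of 0 (-0.060 to 0.033). The cause was not tested. Upper-quartile scaling took the median of all genes for EGF against PBS from -0.07 to -0.14. Same-numbered libraries correlated in their deviations from the group means at -0.03 to 0.18 (median 0.06, 23 of 108 pairs over 0.1). The median of differently numbered libraries was -0.03, and 26 of 27 libraries correlated best with their own number. The libraries thus shared a weak component tied to the replicate number, which the main model left out. The counts with the replicate block, given above, take it into account. What the number stands for was not tested.

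The limits are 3 libraries a group, 1 cell line and 1 time point; POLE2 rests on as few as 13 counts in a library.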
